A study of Mus musculus with 12 samples.

Results

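The metallothioneins Mt1 and Mt2, the zinc-sensing transcription factor Mtf1 and the zinc exporter Slc30a1 were examined in PreMegEs, progenitors in bone marrow that give rise to megakaryocytes and to red blood cells. These 4 genes, of 41128 in the count table, were matched by symbol and had been chosen by their levels in earlier results of the same counts, in which Mt2 was at the detection limit in P2+ cells. The P2+ values of these 4 genes are therefore given as a description, without a test, while other genes were tested in P2+ too. The remaining groups were tested. WT cells were not separated into P2- and P2+, and no such separation is given for KO. A test against P2- is therefore not independent of a choice by low P2+ values.

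Adult C57BL/6 mice of 12 to 16 weeks gave 4 groups of 3 libraries, each made from sorted cells pooled from 3 mice. WT PreMegEs came from wild type mice. P2- and P2+ PreMegEs came from Runx1 P1-GFP::P2-hCD4/+ mice, in which GFP marks the distal promoter P1 of Runx1 and a truncated human CD4 marks the proximal promoter P2, and they were the PreMegEs that lacked or carried hCD4. KO PreMegEs came from mice with a RUNX1C knockout, which lack the isoform made from P1 while transcription from P2 is kept. The WT mice lack the reporter allele, so sort fraction and genotype cannot be told apart where P2- or P2+ is set against WT. No sort by hCD4 is given for KO, whose genotype also differs, so the same holds where KO is set against P2- or P2+. P-values measure the spread between pooled libraries.

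Metallothioneins are small proteins rich in cysteine that bind zinc and copper and buffer them inside the cell. MTF1 is activated by free zinc, binds metal response elements (MREs) in promoters, and turns on the metallothionein genes and Slc30a1, whose product ZnT1 carries zinc out of the cell. Mt1 and Mt2 also answer to glucocorticoids, oxidative stress and inflammatory signals, and developing erythroid cells need zinc, iron and copper for heme enzymes and carbonic anhydrases. The labels name no zinc treatment, and zinc itself was not measured.

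Mt1 (ENSMUSG00000031765) lies on chr8:94179082-94180327 and Mt2 (ENSMUSG00000031762) on chr8:94172664-94173568 of GRCm38, both on the plus strand, with 5513 bases between them. Mtf1 (ENSMUSG00000028890) lies on chr4:124802104-124849800 and Slc30a1 (ENSMUSG00000037434) on chr1:191906767-191913247, both on the plus strand. Mt1 overlaps no other annotated gene. Mt2, Mtf1 and Slc30a1 each overlap a gene on the other strand (Gm45774, 1110065P20Rik and 1700034H15Rik), and Mtf1 also holds n-R5s192 on its own strand. Whether the counting used the strand is not given in the sources used here, so reads of these 3 genes and of their partners may not be separated. The transcripts of Mt1 and Mt2 share no exact stretch longer than 20 bases, against reads of 75 bases.

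The promoters of Mt1, Mt2 and Slc30a1 are printed because MTF1 is known to act through them. They were taken from the RefSeq promoter table of GRCm38.p6, which held all 4 genes, from 250 bases before the RefSeq start up to the first annotated transcript base. Capitals mark MRE cores, searched as TGCACNC and TGCGCNC on both strands. The printed stretches are chr8:94178839-94179081 for Mt1, chr8:94172368-94172617 for Mt2 and chr1:191906531-191906766 for Slc30a1, all on the plus strand.
Mt1 promoter: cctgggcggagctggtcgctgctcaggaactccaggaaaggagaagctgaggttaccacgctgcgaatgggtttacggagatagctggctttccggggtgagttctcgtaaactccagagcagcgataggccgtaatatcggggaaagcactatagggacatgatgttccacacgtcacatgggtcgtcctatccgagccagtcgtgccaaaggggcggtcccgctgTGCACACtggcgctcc
Mt2 promoter: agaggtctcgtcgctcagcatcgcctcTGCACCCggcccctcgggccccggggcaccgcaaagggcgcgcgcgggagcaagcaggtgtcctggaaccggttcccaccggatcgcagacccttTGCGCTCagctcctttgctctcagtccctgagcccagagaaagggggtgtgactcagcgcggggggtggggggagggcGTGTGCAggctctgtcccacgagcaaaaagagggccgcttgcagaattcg
Slc30a1 promoter: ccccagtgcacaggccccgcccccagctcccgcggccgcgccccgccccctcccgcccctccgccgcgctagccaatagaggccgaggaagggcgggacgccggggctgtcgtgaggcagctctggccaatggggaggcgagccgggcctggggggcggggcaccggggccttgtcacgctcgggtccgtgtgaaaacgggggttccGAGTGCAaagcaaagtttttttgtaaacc
Further MRE cores lay just past the start, in capitals here, at chr8:94179091-94179115 (Mt1), chr8:94172622-94172628 (Mt2) and chr1:191906811-191906817 (Slc30a1).
Mt1 site: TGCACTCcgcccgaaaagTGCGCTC
Mt2 site: GTGCGCA
Slc30a1 site: GAGCGCA

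In the whole window, from 250 bases before to 50 after the RefSeq start, Mt1 held 3 MRE cores, Mt2 held 4 and Slc30a1 held 2. At least 1 core was present in 25.7% of 32851 RefSeq windows of the same length, at least 2 in 7.11%, at least 3 in 1.97% and at least 4 in 0.518%. GENCODE also has a Mt1 transcript that starts further downstream, at base 94179211. The window of 300 bases around that start held 5 MRE cores, a number reached by 0.143% of the RefSeq windows, and 3 of the 5 are the cores given above. The Mtf1 window held 0 MRE cores. The RUNX motif TGTGGT (in 16.8% of windows) and the GATA motifs AGATAA and TGATAA (18.6%) had 0 matches in the window of any of the 4 genes. Only these letters were searched and not other forms of the motifs, so RUNX or GATA sites are not shown to be absent. The antioxidant response element, searched as TGACNNNGC, had 1 match each in the windows of Mt2, of Slc30a1 and around the downstream start of Mt1 (12.4% of windows hold it), and it overlapped no MRE core. These are matches of letters in short windows and do not show that a factor binds there.

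**Figure D1:**
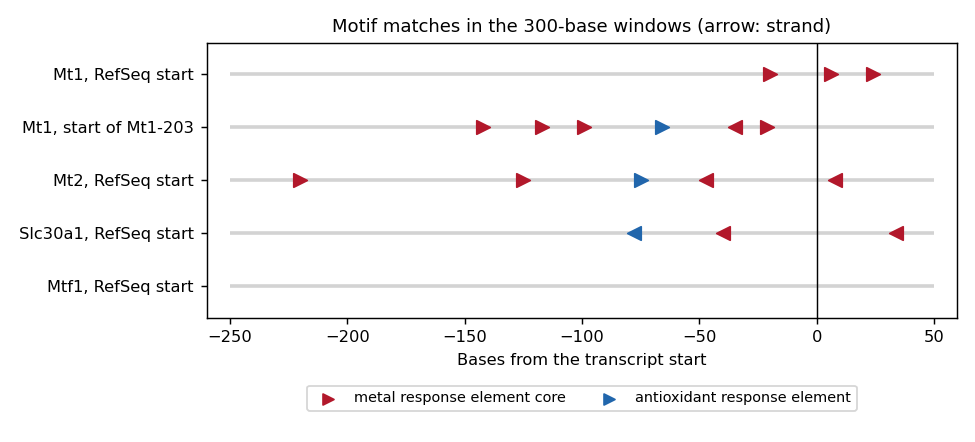
Positions of MRE cores (red) and antioxidant response elements (blue) in bases from the transcript start, with 1 line for each window of 300 bases and arrows for the strand. Mt1 carries 3 MRE cores around its RefSeq start and 5 around its downstream start, Mt2 carries 4, Slc30a1 carries 2 and Mtf1 carries 0.

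Total counts ran from 10726098 to 14445026 per library, and levels are given in CPM, the counts relative to a library size that the TMM method scaled. A count of 0 was read as allowing up to 3 counts, for counting error only. Replicate 2 of P2- and of P2+ stood apart by its immediate early genes, with 13477 and 9130 CPM summed over 11 genes against 187 to 1290 in the other 10 libraries. Runx1, counted over both promoters, had 369 CPM in WT, 211 in P2-, 631 in P2+ and 360 in KO, and since the 2 promoters are counted together this does not check the loss of RUNX1C. Of 8 erythroid markers the summed level was 699 to 744 CPM in WT, 977 to 1182 in P2-, 121 to 193 in P2+ and 916 to 999 in KO, and that of 6 megakaryocyte markers was 513 to 597, 116 to 167, 809 to 1214 and 298 to 334. Macrophage markers summed to at most 7.79 CPM and lymphoid markers to at most 9.72 in any library, with Adgre1 at 0 counts in all P2-, P2+ and KO libraries and Cd3e at 0 in all P2- and P2+ libraries. The 7 neutrophil and monocyte markers summed to 63.7 to 160 CPM in WT, 17.8, 92.6 and 16.8 in P2- replicates 1, 2 and 3, 80.4 to 198 in P2+ and 14.7 to 48.8 in KO, and of those tested 1 (Mpo) was called lower in P2- and 2 (Mpo and Elane) in KO against WT. In P2- against WT, 3 of the 5 tested had a positive log2 fold change, with 0 called higher. The mean of Ngp, for example, was 16.1 ± 22.4 CPM in P2- and 2.57 ± 0.464 in WT (SD, n = 3). The 4 mast cell and basophil markers summed to 26.7 to 46.2 CPM in WT, 24.5 to 28.3 in P2-, 84.1 to 137 in P2+ and 47.3 to 64.2 in KO, so that P2+ and KO lay above P2- without overlap. Stroma and endothelium markers reached 27.9 CPM in WT replicate 3 and at most 2.88 in the other libraries. In bulk samples fewer cells with a transcript and less of it per cell cannot be told apart.

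Mt1 was the most abundant of the 4 genes per length, highest in P2- and lowest in P2+ PreMegEs, with WT and KO between them. In WT its level was 45.3, 47.9 and 56.0 CPM in replicates 1, 2 and 3, and in P2- it was 78.7, 90.3 and 100.7 CPM. All P2- libraries lay above all WT libraries. In KO the level was 58.2, 60.5 and 51.0 CPM, a range that overlapped WT and lay below all P2- libraries. In P2+ it was 9.88, 9.18 and 9.99 CPM, from 118, 133 and 131 counts, so that the P2+ values lay close together and far below every other library. As means these are 49.7 ± 5.61 (SD, n = 3) in WT, 89.9 ± 10.99 (SD, n = 3) in P2-, 56.5 ± 4.96 (SD, n = 3) in KO and 9.68 ± 0.441 (SD, n = 3) CPM in P2+. Divided by the exonic length of 1246 bases, Mt1 had an RPKM of 39.9 in WT, 72.2 in P2-, 45.4 in KO and 7.77 in P2+.

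Mt2, which encodes the partner metallothionein, was much scarcer and was not counted in P2+ PreMegEs. It had 42, 70 and 73 counts in the WT libraries (4.71 ± 1.59 CPM, SD, n = 3), 88, 57 and 189 in P2- (8.61 ± 4.17, SD, n = 3) and 60, 52 and 26 in KO (4.02 ± 1.48, SD, n = 3). All 3 P2+ libraries had 0 counts. The P2- libraries varied most, with replicate 3 at 13.3 CPM and replicate 2 at 5.47, inside the range of WT, while the KO range lay just below that of P2-. Against the 3 counts that a count of 0 allows in each P2+ library, 0.229 CPM on average, mean Mt2 was at least 37.6-fold lower in P2+ than in P2-, at least 20.6-fold lower than in WT and at least 17.5-fold lower than in KO. The lowest single library of P2-, WT and KO stood 21.8-fold, 11.6-fold and 9.42-fold above the highest such limit of P2+. Mt2 had an RPKM of 8.02 in WT, 14.6 in P2- and 6.83 in KO.

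Mtf1 and Slc30a1 moved within a narrow range. Mtf1 had 51.4, 51.2 and 45.1 CPM in WT, 59.9, 58.2 and 60.3 in P2-, 46.1, 36.6 and 43.8 in P2+ and 67.9, 53.7 and 53.4 in KO. All P2- and KO libraries lay above all WT libraries, and the P2+ range reached into that of WT. Slc30a1 had 41.9, 44.2 and 36.1 CPM in WT, 47.8, 44.0 and 46.3 in P2-, 36.7, 33.1 and 37.1 in P2+ and 54.0, 50.6 and 42.4 in KO. Its WT range overlapped that of every other group, and only the P2+ libraries were all below P2- and KO. Per length the 2 genes were alike in level, at 5.53 and 7.76 RPKM in WT, and below Mt1 in every group. In P2+ the RPKM of Mt1, 7.77, was still above that of Slc30a1 (6.79) and of Mtf1 (4.74), by a smaller distance.

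**Figure D2:**
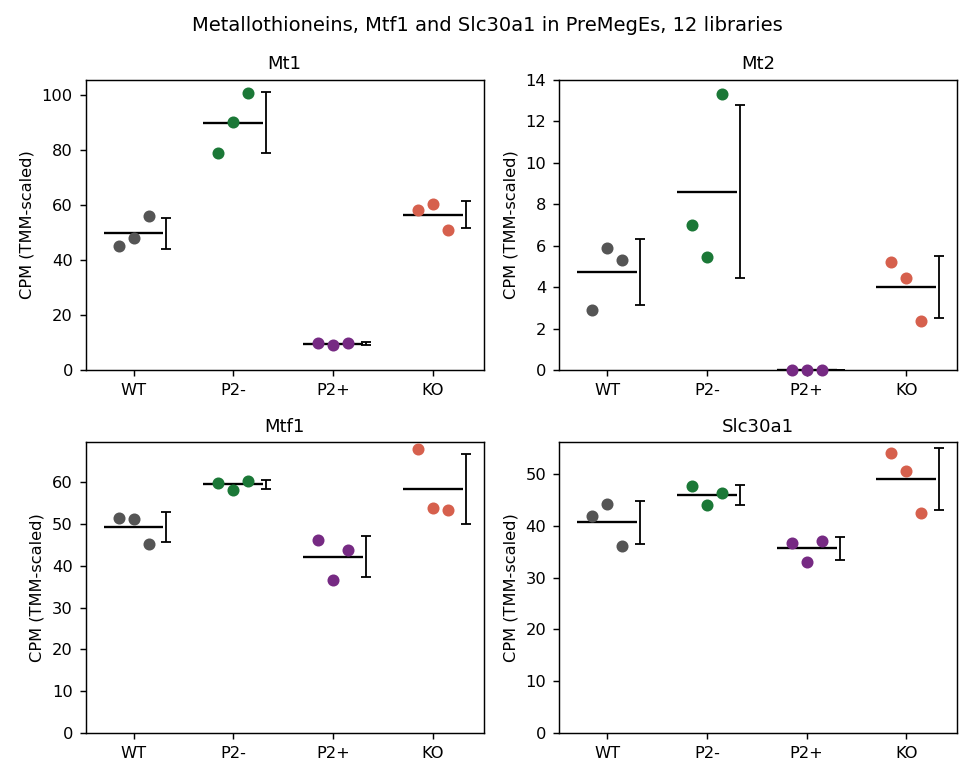
TMM-scaled CPM of Mt1, Mt2, Mtf1 and Slc30a1 in each library by group, with the group mean as a line and its SD (n = 3) as a bar to the right, on axes that start at 0. Mt1 lies between 78.7 and 100.7 CPM in P2- and between 9.18 and 9.99 in P2+, Mt2 is at 0 in all P2+ libraries, and Mtf1 and Slc30a1 span 36.6 to 67.9 and 33.1 to 54.0 CPM.

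P2- PreMegEs, which lack the marker of P2, were compared with unseparated WT PreMegEs. For the 4 genes these tests are not independent of their choice by low P2+ values. Of the 4 genes, Mt1 rose 1.81-fold in P2- (log2 fold change 0.86 with a standard error of 0.11; quasi-likelihood adjusted p = 7.65e-04), in a comparison where 6.85% of 12767 tested genes were called higher and 9.60% lower. The difference was larger than the spread between replicates, and leaving out any library kept the log2 fold change between 0.76 and 0.95. Mt2 had a similar fold change on the log2 scale and a wider error, 0.88 (standard error 0.36, adjusted p = 0.129), and did not pass the test. It passed without P2- replicate 2, the library with the high immediate early genes (log2 fold change 1.12, adjusted p = 0.0328). Without P2- replicate 3, the library with the most Mt2, the value fell to 0.41 (adjusted p = 0.488). Mtf1 missed the threshold at 0.27 (standard error 0.09, adjusted p = 0.0527), and Slc30a1 did not pass it at 0.18 (standard error 0.10, adjusted p = 0.263). The summed erythroid markers moved along with Mt1, and 4 of 7 tested were called higher in P2-, among them the erythroid factor Klf1 (0.77). All 6 megakaryocyte markers were called lower in P2-. The part of either list in the Mt1 difference was not tested.

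KO PreMegEs were compared with WT PreMegEs to see the levels without RUNX1C. None of the 4 genes passed edgeR's quasi-likelihood test, where 6.18% of 12784 tested genes were called higher and 8.76% lower in KO, and none passed with edgeR's exact test or DESeq2. At an unadjusted p under 0.05, 2 of the 4 differed, Mtf1 and Slc30a1. On the log2 scale Mt1 was at 0.18 (standard error 0.10, adjusted p = 0.287), Mt2 at -0.23 (standard error 0.34, adjusted p = 0.722), Mtf1 at 0.24 (standard error 0.10, adjusted p = 0.148) and Slc30a1 at 0.26 (standard error 0.11, adjusted p = 0.133). The erythroid markers were called higher in KO for 3 of 7 tested genes, among them Klf1 (0.69) and Epor (0.55), which encodes the erythropoietin receptor, and 5 of 6 megakaryocyte markers were called lower. Of the mast cell and basophil markers, 2 of 2 tested were called higher in KO (median log2 fold change 0.847).

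KO and P2- PreMegEs differed from each other at few genes, with 1.33% of 12588 tested genes called higher and 0.278% lower in KO. Mt1 was among the latter, 1.60-fold lower in KO (log2 fold change -0.67 with a standard error of 0.11; quasi-likelihood adjusted p = 0.0122). The Mt1 call rested on each of the KO libraries, since the adjusted p was 0.0743 without KO replicate 1, 0.0578 without KO replicate 2 and 0.0721 without KO replicate 3, with log2 fold changes of -0.70, -0.72 and -0.61. Mt2 was at -1.11 on the log2 scale (standard error 0.37, adjusted p = 0.186), and passed only without P2- replicate 2 (-1.34, adjusted p = 0.0206). Without P2- replicate 3 its value was -0.64 (adjusted p = 0.400). Mtf1 was at -0.03 (standard error 0.10, adjusted p = 0.917) and Slc30a1 at 0.09 (standard error 0.10, adjusted p = 0.727). Markers of other cell types moved in the same comparison. All 6 megakaryocyte markers were called higher in KO than in P2- (median log2 fold change 1.127), and so were both tested mast cell and basophil markers, Ms4a2 (1.62) and Cpa3 (0.75). The summed erythroid markers of KO (916 to 999 CPM) and P2- (977 to 1182) overlapped. The part of these lists in the Mt1 difference was not tested. Whether the KO libraries were prepared and sequenced with the others is not given in the sources used here, so group and preparation cannot be told apart. Genotype and sort fraction cannot be told apart between KO and P2- either.

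**Figure D3:**
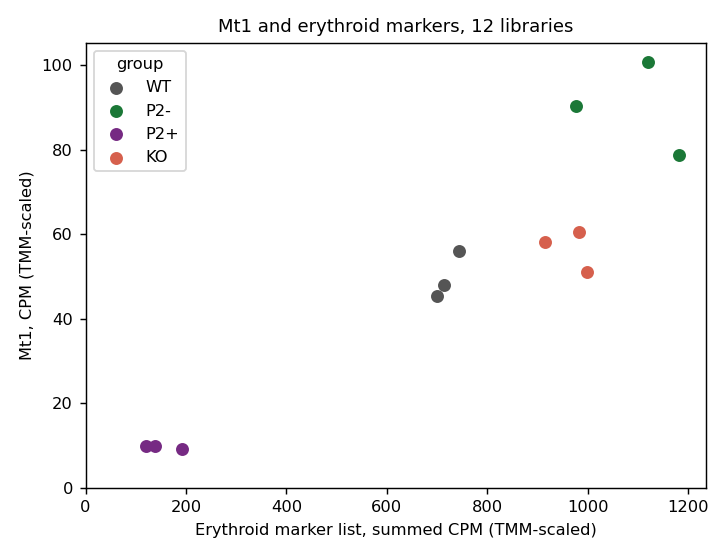
Mt1 (CPM, vertical axis) against the summed CPM of 8 erythroid markers (horizontal axis), with 1 point for each of 12 libraries coloured by group. KO libraries lie at 916 to 999 CPM of erythroid markers and 51.0 to 60.5 CPM of Mt1, and P2- libraries at 977 to 1182 and 78.7 to 100.7. Megakaryocyte and mast cell markers, which also differed between KO and P2-, are not plotted.

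The P2+ values of the 4 genes, which chose them, are described without a test. Mt1 in P2+ had a log2 fold change of -3.20 (standard error 0.13) against P2-, where 20.1% of 12836 tested genes were called higher and 17.0% lower in P2+. Against WT it was -2.36 (standard error 0.13), where 9.45% of 12941 genes were called higher and 7.07% lower in P2+. KO stood above P2+ by 2.53 (standard error 0.12), where 16.7% of 12807 genes were called higher and 20.3% lower in KO. These comparisons share libraries and are not independent of each other. The same log2 fold changes were much smaller for the other genes, at -0.48, -0.22 and 0.46 for Mtf1 and at -0.36, -0.19 and 0.45 for Slc30a1. The low Mt1 and Mt2 of P2+ stood beside summed erythroid markers of 121 to 193 CPM, below every other library, and megakaryocyte markers of 809 to 1214 CPM, above every other library. The erythroid list did not fall as a whole, with 4 of 6 tested markers called lower in P2+ against P2-. Slc4a1, Hbb-bt and Alas2 had higher means in P2+ (27.2, 3.65 and 2.38 CPM) than in P2- (19.4, 1.98 and 1.26), with overlapping ranges. The part of either list in the metallothionein levels was not tested.

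The share of Mt2 among the counts of both metallothioneins does not depend on the scaling of libraries. It was 6.04%, 10.99% and 8.67% in WT (mean 8.57% ± 2.47, SD, n = 3), 8.17%, 5.72% and 11.7% in P2- (8.53% ± 3.01, SD, n = 3) and 8.26%, 6.85% and 4.44% in KO (6.52% ± 1.94, SD, n = 3). The 3 groups overlapped, and two-sided exact permutation tests of the mean returned p = 1.0 for P2- and WT, p = 0.4 for KO and WT and p = 0.5 for KO and P2- (3 pairs of groups, 0.1 being the smallest p that 3 libraries against 3 allow). The difference in mean share between P2- and WT was -0.04 percentage points and changed direction when 1 library was left out, from -1.62 without P2- replicate 3 to 1.37 without P2- replicate 2. For KO against WT it was -2.05 (-3.31 to -0.84) and for KO against P2- it was -2.01 (-3.42 to -0.43). In P2+, as the choice of the genes implies, the share was 0 of 382 counts, and the 3 counts that a 0 allows in each library set a limit of 2.26% to 2.54% per library. Counts without molecular identifiers are not independent molecules, so these limits cover counting error only.

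**Figure D4:**
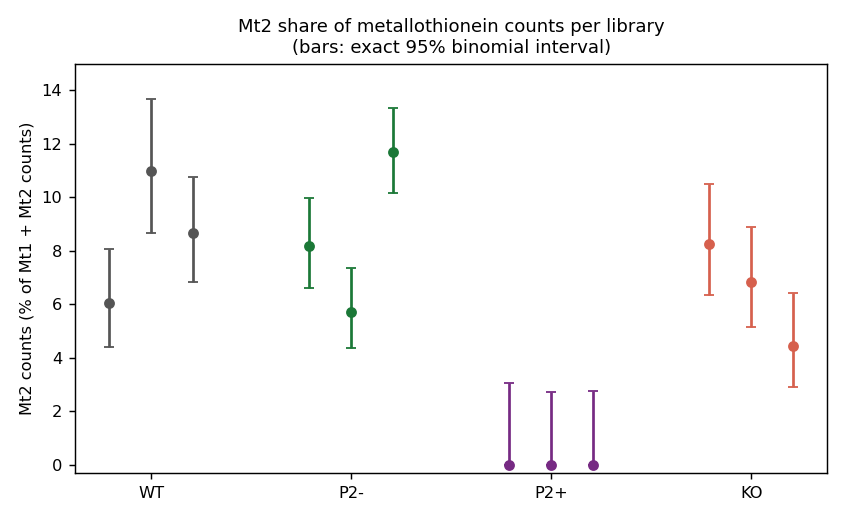
Mt2 counts as a percent of the Mt1 and Mt2 counts of each library, with exact 95% binomial intervals, 3 libraries a group. The P2+ libraries, by which the genes were chosen, are at 0, and the other 9 libraries lie between 4.44% and 11.7%.

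The brain and epithelial metallothioneins Mt3 and Mt4, which lie before Mt2 in the same cluster, had 0 counts in all 12 libraries. The wider zinc pathway was described with a list of 30 further genes, of which 22 passed the filter on low counts and were tested. In P2- against WT, 1 was called higher and 4 lower, beside 6.85% and 9.60% of all tested genes, with a median log2 fold change of 0.01 over the list and 0.01 over all genes. In KO against WT, 3 were called higher and 4 lower beside 6.18% and 8.76% of all genes (median 0.09, all genes 0.00). In P2+ against P2-, 7 were called higher and 4 lower beside 20.1% and 17.0% (median 0.10, all genes -0.02). In P2+ against WT, 3 were called higher and 1 lower beside 9.45% and 7.07%, and in KO against P2+, 5 higher and 7 lower beside 16.7% and 20.3%. With 22 genes tested, several of these counts are near the share of all genes and are no result about the list. Between KO and P2- the count was 0 of 22 with edgeR's quasi-likelihood test, its exact test and DESeq2, while 2 had an unadjusted p under 0.05 with the quasi-likelihood test and with DESeq2 and 1 with the exact test. Each of the 5 comparisons with a call had calls in both directions. In KO against P2+ and in P2+ against WT the list medians were -0.01 and 0.02, beside 0.00 over all genes in both.

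Among 6 tested exporters of the SLC30 family, Slc30a4, which loads zinc into vesicles, was lowest in P2- and KO and highest in P2+. Its level was 16.1, 18.2 and 15.2 CPM in WT, 9.63, 9.51 and 10.0 in P2-, 10.0, 10.8 and 8.10 in KO and 33.8, 26.2 and 24.2 in P2+. P2- and KO lay below WT and P2+ above it, with no overlap. Slc30a4 fell by 0.76 on the log2 scale in P2- against WT (standard error 0.15, adjusted p = 8.05e-03), fell by 0.78 in KO (standard error 0.17, adjusted p = 3.20e-03), and rose by 1.54 in P2+ against P2- (standard error 0.16, adjusted p = 1.37e-04). Slc30a2, another vesicular exporter of low abundance, was the exporter that fell by at least 2-fold in P2+ against P2-, from 3.96 ± 1.35 to 1.55 ± 0.179 CPM (SD, n = 3; log2 fold change -1.33, adjusted p = 0.0176). The more abundant Slc30a5 and Slc30a9, of the early secretory pathway and mitochondria, passed in none of the comparisons with edgeR's quasi-likelihood test, and Slc30a7 of the Golgi (0.53, adjusted p = 0.0311) only in P2+ against P2-. Slc30a5 stood at 92.9, 92.4, 99.15 and 99.0 CPM and Slc30a9 at 61.9, 70.6, 60.2 and 63.4 CPM in WT, P2-, P2+ and KO.

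Of 11 tested importers of the SLC39 (ZIP) family, Slc39a6 and Slc39a8, both carriers of the plasma membrane, changed by over 2-fold between the fractions, in opposite directions. Slc39a6 had 47.1, 40.6 and 41.7 CPM in WT, 23.0, 23.2 and 23.9 in P2-, 54.7, 54.5 and 46.8 in P2+ and 26.9, 22.8 and 30.6 in KO. P2- and KO lay below all WT and P2+ libraries. It fell by 0.88 in P2- (adjusted p = 3.76e-04) and by 0.70 in KO against WT (adjusted p = 4.74e-04), and rose by 1.17 in P2+ against P2- (adjusted p = 5.63e-05). Slc39a8, which also carries manganese, iron and cadmium, had 14.6, 11.1 and 15.4 CPM in WT, 19.0, 25.0 and 18.0 in P2-, 8.38, 10.6 and 9.07 in P2+ and 17.0, 21.4 and 19.6 in KO. Its order of groups was that of Mt1, and the P2+ libraries lay below all others. It fell by 1.125 in P2+ against P2- (adjusted p = 1.56e-03), was at 0.59 in P2- against WT without passing (adjusted p = 0.0506) and rose by 0.48 in KO against WT (adjusted p = 0.0479). The most abundant importers, Slc39a9 and Slc39a10, had 161 ± 4.11 and 119.5 ± 5.01 CPM (SD, n = 3) in WT. Of these Slc39a10, a gene that MTF1 is known to repress, rose by 0.38 in P2+ against P2- (adjusted p = 8.96e-03).

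Genes other than transporters of zinc that are known or proposed targets of MTF1 went apart from each other. Slc40a1, which encodes the iron exporter ferroportin, had 49.6, 61.7 and 50.7 CPM in WT, 140.0, 93.8 and 134.0 in P2-, 6.62, 7.25 and 5.72 in P2+ and 115.5, 142.1 and 132.9 in KO. P2- and KO overlapped and lay above all WT libraries, and P2+ lay below them. Slc40a1 rose in P2- (log2 fold change 1.19, standard error 0.15, adjusted p = 5.11e-04) and in KO (1.26, standard error 0.09, adjusted p = 6.45e-08) against WT and fell by 4.21 in P2+ against P2- (standard error 0.18, adjusted p = 2.01e-06). In KO against P2- it was at 0.08 (standard error 0.14, adjusted p = 0.820), while that of Mt1 was -0.67. Ndrg1, a gene of hypoxia and metal response, ran the other way, at 298 ± 6.13 CPM in WT, 155 ± 12.5 in P2-, 359 ± 39.3 in P2+ and 175 ± 6.05 in KO (SD, n = 3). It fell by 0.94 in P2- (adjusted p = 6.44e-05) and by 0.78 in KO against WT (adjusted p = 1.00e-07). The LIM protein gene Csrp1 followed Ndrg1, falling by 0.45 and 0.48 in the same comparisons. Gclc, of glutathione synthesis, and the selenoprotein gene Selenoh (2700094K13Rik in the table) passed in neither, at 80.4 ± 4.57 and 21.4 ± 3.27 CPM (SD, n = 3) in WT.

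**Figure D5:**
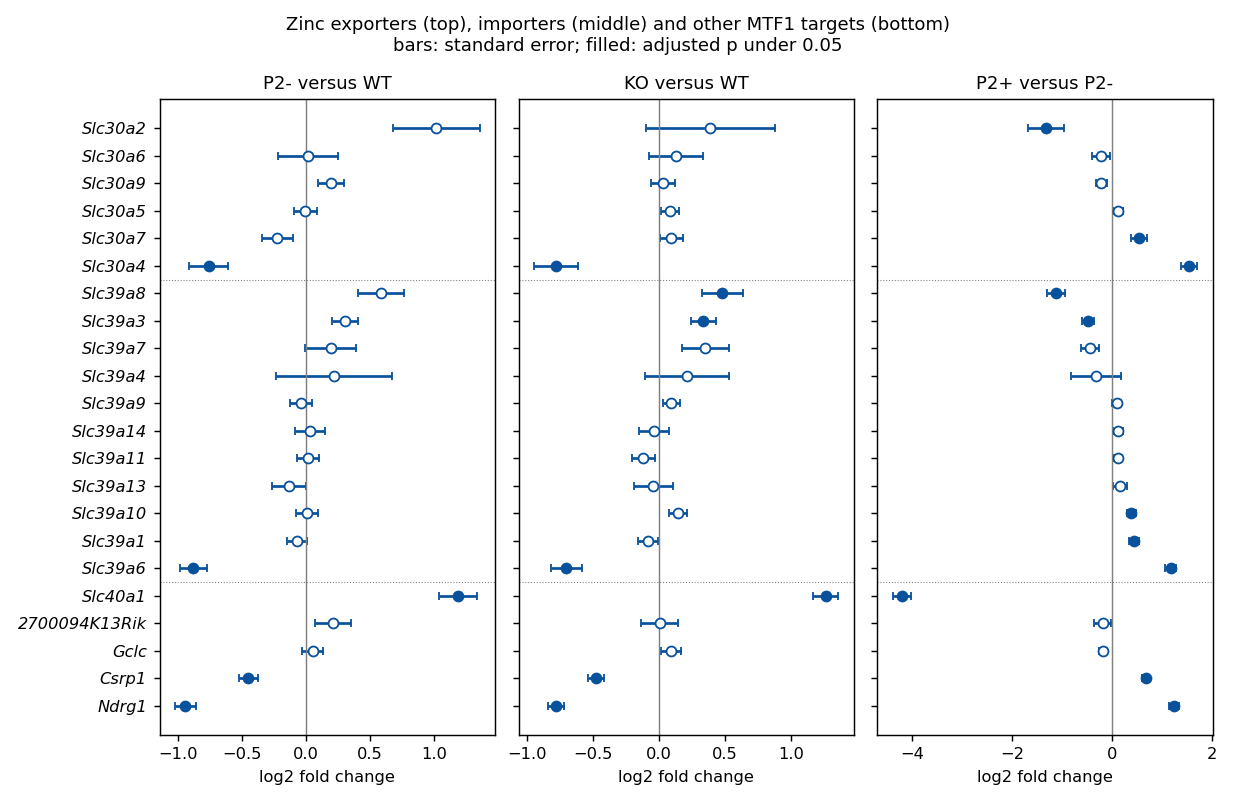
Log2 fold changes of the 22 tested genes of the zinc list in 3 comparisons, with standard errors as bars, filled points at an adjusted p under 0.05 and dotted lines between exporters, importers and other MTF1 targets. Genes that run in the direction of Mt1 include Slc40a1 (1.19, 1.26 and -4.21), Slc39a8, Slc30a2 and the importer Slc39a3. Those that run in the other include Slc30a4, Slc39a6, Ndrg1 and Csrp1.

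Copper, iron and cadmium are carried or bound by genes near this pathway. Of a list of 10 such genes, 9 were tested in P2- against WT and 2 called higher and 0 lower, beside 6.85% and 9.60% of all genes, and 10 were tested in KO against WT and 3 called higher and 0 lower, beside 6.18% and 8.76%. In P2+ against P2-, 2 of 10 were called higher and 2 lower, beside 20.1% and 17.0%. Atp7b, a copper-exporting pump, had 7.62, 9.21 and 6.77 CPM in WT, 28.4, 24.9 and 30.3 in P2-, 1.76, 1.59 and 1.68 in P2+ and 18.2, 23.7 and 32.9 in KO. P2- and KO overlapped above WT, with P2+ below. It rose by 1.83 in P2- (standard error 0.16, adjusted p = 6.91e-05) and by 1.66 in KO against WT (standard error 0.20, adjusted p = 1.49e-05) and fell by 4.04 in P2+ against P2- (standard error 0.18, adjusted p = 2.09e-06). Slc11a2, which encodes the iron carrier DMT1, rose by 0.63 in P2- (adjusted p = 1.24e-03) and by 0.72 in KO (adjusted p = 1.46e-05), and Cox17, a copper chaperone, rose by 0.55 in KO (adjusted p = 0.0428). For Atp7b, Slc11a2 and Slc40a1 the KO range overlapped that of P2- and not that of WT, and for Mt1 it overlapped that of WT and not that of P2-.

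Other signals known to act on metallothionein genes were described by their own lists, beside 6.85% of all genes called higher and 9.60% lower in P2- and 6.18% and 8.76% in KO against WT. Of 9 glucocorticoid-responsive genes, 3 were called higher in P2- than in WT, namely the clock gene Per1 (1.16, adjusted p = 8.48e-03), Klf9 (1.01, adjusted p = 4.31e-03) and the receptor gene Nr3c1 (0.32, adjusted p = 0.0439). In KO against WT, 2 were called higher (Klf9 0.51, Nr3c1 0.26) and 2 lower (Zbtb16 -0.49, adjusted p = 0.0236; Fkbp5 -0.24, adjusted p = 0.0441). The NRF2 list had 3 genes called higher and 1 lower of 9 tested in P2-, with Nfe2l2, which encodes NRF2, at 0.51 (adjusted p = 7.89e-03), Nqo1 at 0.45, Gclm, of glutathione synthesis, at 0.37 (adjusted p = 9.34e-03) and the heme oxygenase gene Hmox1 at -1.39 (adjusted p = 0.0363). In KO, 2 were called higher and 2 lower, with Nfe2l2 at 0.50, Nqo1 at 0.52, Txnrd1 at -0.35 and Hmox1 at -1.64. Of 7 tested heat shock genes, Hsp90aa1 was called higher in both P2- (0.69) and KO (0.37). Of 5 tested genes of the interleukin 6 pathway, 3 were called lower in P2-, the receptor genes Il6ra (-2.85) and Il6st (-1.02) and Stat3 (-0.40). In KO, Il6ra (-0.84) alone was called. Like Mt1, Per1 and Gclm were called higher in P2- and not in KO against WT (Per1 0.12, adjusted p = 0.803; Gclm 0.11, adjusted p = 0.283). In KO against P2-, neither Per1 (-1.04, standard error 0.35, adjusted p = 0.186) nor Gclm (-0.25, standard error 0.07, adjusted p = 0.102) passed. Gclm had 308 to 348 CPM in WT, 410 to 438 in P2- and 343 to 383 in KO, where the KO range overlapped that of WT and lay below that of P2-.

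The genes beside the metallothionein cluster were counted as a description of the locus. Within 250 kb of Mt1 the annotation has 24 genes, 18 of them in the table, and 8 of the 16 other than Mt1 and Mt2 were tested. The pseudogene Ap3s1-ps2 was called lower in P2+ against P2- (-1.36, adjusted p = 7.82e-03) and higher in KO against P2+ (1.11), and Herpud1, a gene of the endoplasmic reticulum stress response, was called lower in KO against P2+ (-0.33, adjusted p = 0.0281). With 8 genes tested no count of calls is read as a result about the locus. Nudt21, Ogfod1, Bbs2 and Nup93, which flank the cluster, stood at 31.0, 73.7, 3.76 and 14.0 CPM in WT and at 33.9, 68.3, 3.64 and 11.1 in P2+.

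The genes with patterns most like those of the 4 were sought among 9529 genes with a mean of at least 10 CPM, by Pearson's r of log2 CPM over the 12 libraries. Points of a correlation share libraries and fall into 4 groups, so the values only rank genes, and the P2+ libraries by which the 4 were chosen are among them. Mt2, under 10 CPM, was not itself a candidate. For Mt1 the first 5 were AI427809 (r = 0.995), Dpy19l1 (0.989), Ces2g (0.986), Gstm5 (0.982) and 8430419L09Rik (0.982). For Mt2 they were Prss50 (0.988), AI427809 (0.985), Dpy19l1 (0.982), Mt1 (0.982) and Ces2g (0.980). AI427809 had 13.5 CPM in WT, 22.5 in P2-, 1.34 in P2+ and 14.3 in KO, the same order of groups as Mt1. Prss50, a serine protease gene, had 23.7, 33.3, 0.725 and 20.7 CPM in the same groups, and Gstm5, a glutathione S-transferase gene, 29.5, 40.5, 8.53 and 30.7. For Mtf1 the closest genes were Rbm27 (0.953), Heatr1 (0.948), Cinp (0.946), Abcb10 (0.944) and Dhx36 (0.939), and for Slc30a1 Med1 (0.940), Dhx36 (0.938), Mtf1 (0.923), Rbm27 (0.922) and Zbtb44 (0.922).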

How the data were processed

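The study sequenced strand-specific poly(A) RNA in read pairs. Reads were mapped with Bowtie2 against GRCm38, and featureCounts assigned them to Ensembl genes. The authors deposited raw counts, whole numbers for each gene and library. The submitters' processing notes name edgeR 3.8.5 and SAMtools 0.1.19. Handling of strand and of reads with several alignments is not given in the sources used here.

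Here each pair of groups was fitted on the counts with the quasi-likelihood test of edgeR 4.0.16 (R 4.3.3), after TMM scaling. A gene entered with 1 CPM or more in 3 or more of the 6 libraries, and p was adjusted over all genes entered (Benjamini-Hochberg). A gene was called at an adjusted p under 0.05. The test was checked on simulated data. RPKM used TMM-scaled counts and exonic lengths of GENCODE vM21. Alternatives were RLE scaling, edgeR's exact test, DESeq2 1.42.0, no filter, 1 fit of 12 libraries, a replicate block and leaving out libraries.

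The genes and lists were chosen with earlier results of these data known. Named were the 4 genes, zinc genes called with a 2-fold change and up to 4 examples a list by CPM, up to 4 called genes by size of change from each other list, neighbours of Mt1, and the 5 most alike genes each. Some items that the rule names are not reported here.

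Same-numbered P2+ and P2- libraries shifted jointly around the means of their groups (correlations of 0.402, 0.590 and 0.432 across genes), so the numbers pair these samples. The tests of P2+ against P2- printed above did not use this pairing, which the replicate block takes in as an alternative. In the other comparisons such correlations were between -0.0978 and 0.186.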

Additional observations from a re-analysis of the deposited data

How the results depend on the processing

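Of 144 recomputed values that have a p, 136 kept their direction and their side of the threshold; the others, such as counts and P2+ values, have no threshold. Among called or described members, Mt1 in P2- against WT passed under all 12 alternatives (leave-one-out log2 fold change 0.76 to 0.95). Mt1 in KO against P2- passed under 9 of 12, with leave-one-out values of -0.76 to -0.59 and an adjusted p of at most 0.0743. With the replicate block, Mt1 was 0.85 (adjusted p = 9.25e-04) in P2- against WT and -0.67 (adjusted p = 0.0459) in KO against P2-, and the block, with 7 genes of the zinc list called higher and 4 lower in the paired P2+ and P2- libraries, changed no call of the members. Mt2 ranged, leaving out 1 library, from 0.41 to 1.12 in P2- against WT, from -1.34 to -0.64 in KO against P2- and from -0.49 to 0.038 in KO against WT, where it turned to 0.038 without KO replicate 3. Mtf1 in KO against P2- ranged from -0.16 to 0.028 and turned to 0.028 without KO replicate 2 and without KO replicate 3. Genes of the zinc list called higher in P2- against WT numbered 3 with the exact test and 2 with DESeq2, without the filter and with all 12 libraries in 1 fit, against 1. Genes called in P2+ against WT numbered 5 higher with DESeq2 and with all 12 libraries (against 3) and 2 lower with all 12 libraries and without P2+ replicate 2 (against 1). Requiring a 2-fold change left 0 lower in P2- against WT, 1 higher and 0 lower in KO against WT, 3 higher in P2+ against P2-, 0 higher in P2+ against WT, and 2 higher and 2 lower in KO against P2+, where 4.10%, 0.743%, 2.67%, 9.54%, 2.16%, 3.03% and 8.32% of all tested genes passed, in the same order. Leaving out 1 library gave 1 to 2 genes higher in KO against WT (1 without KO replicate 2 or 3), 2 to 4 higher and 1 to 2 lower in P2+ against WT, and 3 to 5 higher in KO against P2+ (3 without KO replicate 1). For each of these the cause was not tested. Low counts limit Mt2, at 26 to 189 per library outside P2+, and the Mt2 share, where 3 libraries a group cannot give a p under 0.1.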
